A study of Mus musculus with 36 samples.

Results

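The clustered, replication-dependent histone genes were described in mice given PBS, DMOG or roxadustat. The group was formed from every gene symbol that starts with Hist1h, Hist2h, Hist3h or Hist4h and that averaged at least 0.5 FPKM (fragments per kilobase of transcript scaled by the number of mapped fragments) over the 18 libraries of either expression table. Of 67 such symbols, 58 met this level, out of 22558 genes listed in each table. The 58 comprised 46 genes of the Hist1 cluster on chromosome 13, 8 of Hist2 on chromosome 3, 3 of Hist3 on chromosome 11 and 1 of Hist4 on chromosome 6 (GRCm38). By protein, 5 encoded linker histone H1, 12 H2A, 17 H2B, 12 H3 and 12 H4 (2 of the 58 symbols are marked as pseudogenes by the suffix ps).

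The series compared ways of stabilising HIF, the hypoxia-inducible transcription factor, for the prevention of retinopathy of prematurity. DMOG (dimethyloxalylglycine) and roxadustat are small molecules that inhibit the prolyl hydroxylases which mark HIF for destruction, and PBS was the control. All mice were C57BL/6, and 6 libraries were made for each treatment and tissue label, 36 in all. The labels used here give no dose, age, time or route, and do not say whether each library came from a separate animal, so a p-value here sets a difference against library-to-library spread, which may be technical in part. Sex inferred from transcripts was mixed in every group, with 3 female and 3 male libraries in both PBS groups. The libraries of a group thus did not all come from the same animal. Total RNA was depleted of ribosomal RNA, which keeps transcripts without a poly(A) tail.

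The tissue labels and the transcripts did not match. In the 18 libraries labelled Liver the rod gene Sag lay between 2166 and 3683 FPKM, and the hepatocyte gene Apoa1 reached at most 0.516 FPKM. In the 18 libraries labelled Retina, Apoa1 lay between 6299 and 12786 FPKM and Sag reached at most 0.473 FPKM. The libraries labelled Liver therefore carried retina RNA and those labelled Retina carried liver RNA, and both the label and the RNA are named below. Whether the PBS, DMOG and roxadustat labels were affected cannot be told from these genes. Read depth is not recorded in a table of FPKM, and within each label it was estimated only in relative terms, from the spacing of the lowest values.

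Replication-dependent histone genes supply the bulk histones that package new DNA, and their transcripts normally accumulate during S phase. They are the one large class of animal mRNA that ends in a short hairpin instead of a poly(A) tail. The hairpin-binding protein SLBP and the U7 snRNP direct the cut behind the hairpin, and NPAT switches the clusters on. Some members are also known to make longer, polyadenylated transcripts in cells that have left the cycle. Dividing hepatocytes and blood-forming cells make them in the young liver, and progenitors in the young retina.

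The hairpin is shown because it is the feature that sets these transcripts apart. It was searched in GENCODE M21 (GRCm38) transcripts as a perfect stem of 6 base pairs beginning GG, with a loop of 4 bases beginning TT. Of the 57 members with a transcript model, 36 (63.2%) carried such a hairpin, against 0.414% of 18348 other coding genes listed in the tables. In the sites below the capitals mark the paired stem and the lower-case letters between them are the loop.
Hist1h1e: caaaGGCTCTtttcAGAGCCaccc
Hist1h2bk: caaaGGCTCTtttaAGAGCCacta
Hist1h4c: aaaaGGCCCTtttcAGGGCCaccc
Hist1h4j: taaaGGTCCTtttcAGGACCacca
Hist2h4: taacGGCCCTttttAGGGCCaacc
All 26 H1, H2A, H2B and H3 members with a hairpin had the stem of Hist1h1e and Hist1h2bk. The 10 H4 members with a hairpin had another stem, that of Hist1h4c and Hist2h4 in 8 and that of Hist1h4j in 2. In 16 of the 57 models the transcript ended within 100 bases of the hairpin, in 20 it ran on further, and in 21 no such hairpin was found, which says only that the modelled transcript lacks these letters.

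The upstream sequence is shown as a description, and no link between a motif and a change in level was tested. Of the 58 members, 52 had a promoter in RefSeq (build GRCm38.p6), taken as 250 bases before to 50 after the start. Both strands were searched for 4 short motifs. CCAAT was present in 84.6% of the member promoters and in 37.4% of all 32851 promoters, and the TATA box TATAAA in 59.6% and 13.6%. The octamer ATTTGCAT was found in 7 of 14 H2B and 6 of 12 H2A promoters and in no H1, H3 or H4 promoter, against 1.74% of all promoters. Windows of neighbouring H2A and H2B genes on opposite strands can overlap, as for Hist1h2ah and Hist1h2bk. The same octamer site can then count for both types. The H1 box AAACACA was found in 4 of 5 H1 promoters, against 7.18% of all. Among 11 H4 promoters, 3 held CCAAT. The last 120 bases before the start are given for 4 members that the results turn on, with matches to the 4 motifs in capitals.
Hist1h1e (chr13:23622559-23622678, minus strand): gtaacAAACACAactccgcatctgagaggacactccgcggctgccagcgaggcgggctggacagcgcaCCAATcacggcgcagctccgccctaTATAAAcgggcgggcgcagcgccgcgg
Hist2h2bb (chr3:96269580-96269699, plus strand): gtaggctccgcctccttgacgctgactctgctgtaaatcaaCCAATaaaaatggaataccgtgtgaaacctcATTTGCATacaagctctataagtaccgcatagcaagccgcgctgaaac
Hist1h2bk (chr13:22035701-22035820, plus strand): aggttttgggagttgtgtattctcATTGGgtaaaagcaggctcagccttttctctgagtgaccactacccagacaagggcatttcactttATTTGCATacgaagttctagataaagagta
Hist1h4j (chr13:21734914-21735033, plus strand): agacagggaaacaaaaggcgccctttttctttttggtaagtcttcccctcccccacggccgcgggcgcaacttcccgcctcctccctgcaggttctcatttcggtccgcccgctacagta
These matches describe letters in a window and not factor binding. ATTGG in the Hist1h2bk sequence is CCAAT read from the other strand.

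Near-identical copies limit what a single member's value means. In windows of 50 bases, 2 members shared more than 90% of their transcript with another gene of the tables, 35 shared less than 50%, and 4 shared none. Some rows left out of the group also shared much of their sequence. Hist1h2ao, Hist1h2ap, Hist1h2bq and Hist2h2aa2 shared 93.5%, 93.1%, 100% and 100% of their windows. Each averaged under 0.5 FPKM in both tables. The member Hist1h3h shared 93.9% and averaged 34.0 FPKM in retina RNA (labelled Liver) and 113 FPKM in liver RNA (labelled Retina). Whether sharing lowered any of these values was not tested. Hist1h2aa and Hist1h4n, which shared 2.35% and 85.6% of their windows, were listed at 0 in all 36 libraries. An exact 0 can be a failed estimate in such tables, since the hepatocyte gene Alb was also listed at 0 in every library of liver RNA. The row just outside the threshold, Hist1h1t, averaged 0.451 FPKM in the liver RNA (labelled Retina), and the one just inside it, Hist1h2ba, averaged 1.78 FPKM. That mean rested almost wholly on a single DMOG library at 31.9 FPKM, so Hist1h2ba entered the group through it. Hist1h1e shared 32.0% of its windows, mostly with Hist1h2be, and Hist3h2a 31.5%, mostly with Trim17. Some members called below shared more: Hist1h2bk 74.2%, Hist1h2an 85.8%, Hist1h2bn 86.45%, Hist1h3i 87.6% and Hist1h4m 89.8%. The levels of such members could include reads of another gene. In retina RNA (labelled Liver), 12 members called with DMOG and 13 called with roxadustat shared less than 50%. In RefSeq 4 members overlap another gene in position, Hist3h2a with Trim17, Hist3h2ba with Gm51864, Hist1h2be with Gm33387 and Hist1h2ba with Gm33516, so their levels could include reads of it.

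The repertoire of histone transcripts differed between the 2 kinds of RNA. In retina RNA (labelled Liver) 1 gene, Hist1h4c, which encodes H4, held 29.7% ± 4.02 (SD, n = 18) of the summed histone FPKM, with a mean level of 1973 FPKM. In liver RNA (labelled Retina) Hist1h4c held 4.46% ± 0.602 (SD, n = 18), and the highest member was Hist2h2bb, an H2B gene, at a mean of 468 FPKM. As a type, H4 made up 61.3% ± 2.74 (SD, n = 18) of the histone sum in retina RNA and 35.7% ± 1.59 in liver RNA, whereas H2A made up 4.60% ± 0.343 and 11.4% ± 0.998 and H2B 12.4% ± 1.10 and 24.9% ± 0.954. H1 was close in both, at 11.1% ± 0.840 and 10.2% ± 0.696. These shares are given as a description and were not tested between labels.

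The next most abundant members of the retina RNA were Hist1h4d at a mean of 698 FPKM, Hist1h4h at 587 FPKM, the linker histone gene Hist1h1c at 381 FPKM and the H3 gene Hist1h3e at 358 FPKM, followed by Hist1h1e at 254 FPKM, Hist3h2ba at 208 FPKM and Hist2h2bb at 183 FPKM. In liver RNA, Hist1h4d, Hist1h4h and Hist1h4f had means of 465, 460.5 and 452 FPKM, closer to each other than the SD of any of them within a treatment. Hist1h4c at 353 FPKM, Hist1h4m at 340 FPKM, the H2B gene Hist1h2bb at 335 FPKM and the H3 gene Hist1h3c at 315 FPKM followed. By cluster, Hist1 supplied 87.1% ± 1.05 (SD, n = 18) of the sum in retina RNA and 86.8% ± 0.520 in liver RNA. Hist2 supplied 7.23% ± 0.566 and 12.2% ± 0.485, and the Hist3 genes 5.22% ± 0.537 and 0.807% ± 0.107.

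In retina RNA (labelled Liver) histone transcripts were higher after either drug. The summed level of the 58 genes was lowest at 4481, had a median of 5368 and was highest at 5726 FPKM in the PBS libraries. With DMOG it was 6072, 7317 and 7874 FPKM. With roxadustat it was 5629, 7776 and 8222 FPKM. The DMOG and PBS libraries did not overlap, and the roxadustat libraries overlapped the PBS range through replicate 6 alone. The ratio of the group means was 1.36 for DMOG and 1.41 for roxadustat. Without the dominant gene Hist1h4c the ratios were 1.42 and 1.40, and by type they ran from 1.33 (H2B) to 1.46 (H3) with DMOG and from 1.31 (H2B) to 1.44 (H4) with roxadustat.

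**Figure D1:**
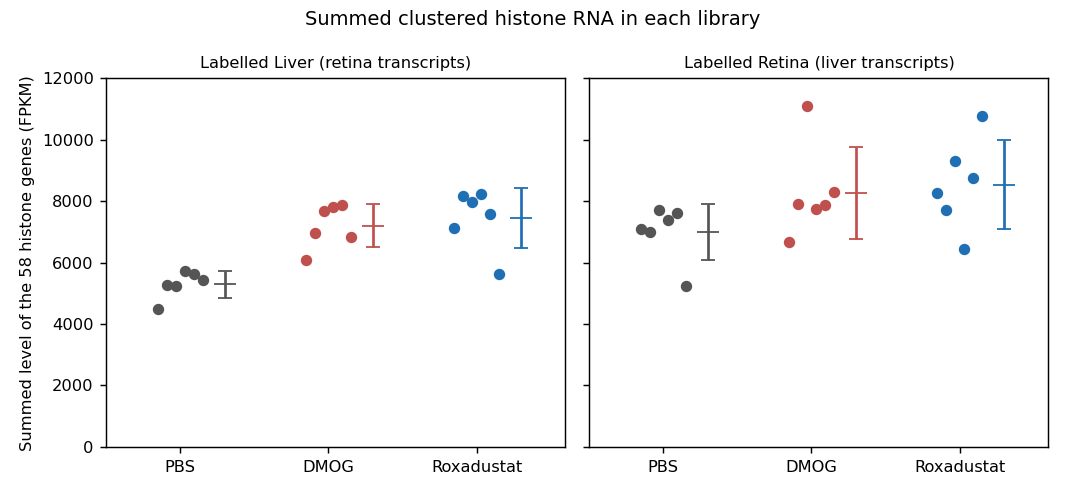
Summed level of the 58 histone genes (vertical axis, FPKM) in each library by treatment, for the libraries labelled Liver (left, retina transcripts) and labelled Retina (right, liver transcripts). Points are libraries, and the bar beside them is the mean with 1 SD (n = 6). On the left the PBS libraries lie between 4481 and 5726 and all 6 DMOG libraries lie above them, while on the right the groups overlap.

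Gene by gene, with DMOG in retina RNA (labelled Liver), 12 of the 56 members that passed the filter on low values were called higher and 0 lower (limma, Benjamini-Hochberg adjusted p under 0.05 over 13779 genes). Over all genes tested, 0.37% were called higher and 0.697% lower in that comparison. The median log2 fold change of the members was 0.47 (on the scale of log2(FPKM + 0.5)) beside 0.01 for all genes, 53 of 56 were above 0, and 39 were higher at an unadjusted p under 0.05 with 0 lower. For 4 of the 56 members every DMOG library lay above every PBS library, beside 0.523% of all genes. With roxadustat 18 of 56 members were called higher and 0 lower, beside 1.69% and 0.653% of all genes. Their median log2 fold change was 0.54, 55 of 56 were above 0 and 45 were higher at an unadjusted p under 0.05. For 7 members the groups did not overlap, beside 1.44% of all genes. The 2 drug comparisons share their 6 PBS libraries, so their values stand side by side and are not independent.

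Among the linker histones, which bind the DNA between nucleosomes, 3 of 5 genes were called higher with DMOG and 5 of 5 with roxadustat in retina RNA (labelled Liver). Their median log2 fold changes were 0.48 and 0.55, beside 0.51 and 0.56 for the H4 genes, and no test was made between types. Hist1h1e lay at 146, 192 and 216 FPKM (lowest, median and highest) with PBS, at 248, 313 and 318 FPKM with DMOG and at 242, 263 and 333 FPKM with roxadustat. Neither drug group overlapped the PBS group. The log2 fold change was 0.65 ± 0.093 (SE, n = 6 against 6; limma, adjusted p = 0.00329) with DMOG and 0.55 ± 0.093 (adjusted p = 0.00175) with roxadustat. Hist1h1c lay at 241, 306 and 376 FPKM with PBS and at 401, 428 and 453 FPKM with DMOG, with no overlap. Its log2 fold change was 0.48 ± 0.085 (limma, adjusted p = 0.00895), and with roxadustat, at 346, 411 and 473 FPKM, it was 0.41 ± 0.085 (adjusted p = 0.0108). Hist1h1d rose with both drugs, by 0.53 and 0.55. Hist1h1a and Hist1h1b were called with roxadustat, at 0.47 ± 0.11 and 0.74 ± 0.19, and had values of 0.28 ± 0.11 and 0.24 ± 0.19 with DMOG that did not pass (adjusted p = 0.249 and 0.579). The calls of Hist1h1e and Hist1h1c held with each of the 18 libraries left out in turn. That of Hist1h1d with DMOG was lost in 7 of the 18 omissions, and those of Hist1h1a and Hist1h1b with roxadustat in 5 and 10.

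Among the H2A genes, whose product forms the core dimer with H2B, 3 of 11 were called higher with DMOG and 2 of 11 with roxadustat. Hist1h2ac was low but called with both drugs, at 3.46 to 4.89 FPKM with PBS, 4.79 to 6.59 with DMOG and 4.95 to 6.86 with roxadustat. Its log2 fold changes were 0.48 ± 0.088 (limma, adjusted p = 0.0106) and 0.42 ± 0.088 (adjusted p = 0.0127). Hist3h2a, at 74.1 to 92.8 FPKM with PBS and 88.3 to 113 with DMOG, rose by 0.36 ± 0.075 with DMOG and had a value of 0.28 ± 0.075 with roxadustat that did not pass (adjusted p = 0.0544). Its DMOG call was lost without PBS replicate 1, 2 or 3 or DMOG replicate 2, 4, 5 or 6. The largest called change was that of Hist1h2an with roxadustat, 1.14 ± 0.23, at levels of 0.903 to 2.95 FPKM with PBS and 3.28 to 5.58 FPKM with roxadustat.

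Of 16 H2B genes tested in retina RNA (labelled Liver), 3 were called with DMOG and 4 with roxadustat. The transcribed pseudogene Hist3h2bb-ps lay at 23.9, 30.5 and 37.2 FPKM with PBS, at 38.9, 52.2 and 63.7 FPKM with DMOG and at 40.1, 47.6 and 56.3 FPKM with roxadustat. It did not overlap between PBS and either drug, and its log2 fold changes were 0.71 ± 0.12 (limma, adjusted p = 0.00456) and 0.64 ± 0.12 (adjusted p = 0.00328). Hist1h2bn and Hist1h2bj rose with roxadustat, by 0.67 ± 0.13 and 0.90 ± 0.17, with calls that held under each library left out. Hist2h2bb was called with DMOG, at 0.49 ± 0.11 (adjusted p = 0.0396), and lost the call in 10 of 18 omissions, with no filter on low values and with the replicate number as a block. Hist1h2bc, which is also known to be expressed outside S phase, had values of 0.07 ± 0.081 and -0.02 ± 0.081, the smallest of the H2B genes in both comparisons. The H3 genes gave the fewest calls, with 0 of 12 for DMOG and 1 of 12 for roxadustat (Hist1h3i, 0.70 ± 0.18, adjusted p = 0.0414), a call that was lost in 13 of 18 omissions. Their library spread was wide: Hist1h3d ranged from 1.81 to 13.9 FPKM among PBS libraries and had a log2 fold change of 1.07 ± 0.66 with DMOG. The abundant Hist1h3e did not pass in either comparison, at 0.53 ± 0.15 (adjusted p = 0.0979) with DMOG and 0.34 ± 0.15 (adjusted p = 0.237) with roxadustat. Hist2h3c1, at 7.23 to 9.17 FPKM with PBS, had values of -0.03 ± 0.083 and 0.07 ± 0.083.

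H4, the most conserved core histone, had 3 of 12 genes called with DMOG and 6 of 12 with roxadustat in retina RNA (labelled Liver), and all 12 values were above 0 in both comparisons. Hist1h4j lay at 25.1, 33.0 and 43.6 FPKM with PBS, at 37.7, 57.9 and 62.9 FPKM with DMOG and at 46.8, 60.6 and 65.03 FPKM with roxadustat. It had the smallest adjusted p of the members with roxadustat, where the groups did not overlap (log2 fold change 0.85 ± 0.13, limma, adjusted p = 0.000773), and rose by 0.76 ± 0.13 with DMOG. Hist1h4d, at 483 to 631 FPKM with PBS, 576 to 843 with DMOG and 615 to 891 with roxadustat, was called at 0.46 ± 0.098 (adjusted p = 0.0297) and 0.47 ± 0.098 (adjusted p = 0.0128). The DMOG call was lost with no filter and without PBS replicate 1, 2, 3 or 6 or DMOG replicate 2, 4, 5 or 6, and the roxadustat call held in all 18 omissions. Hist1h4h rose by 0.55 ± 0.12 and Hist1h4m by 0.63 ± 0.12 with roxadustat. The dominant Hist1h4c lay at 1344, 1642 and 1849 FPKM with PBS, at 1634, 1956 and 2428 FPKM with DMOG and at 1514, 2425 and 2866 FPKM with roxadustat. Its groups overlapped and it did not pass, at 0.29 ± 0.14 (adjusted p = 0.362) and 0.48 ± 0.14 (adjusted p = 0.0756). Hist2h4 was called with both drugs, at 0.57 and 0.58, and lost the DMOG call in 7 of 18 omissions. The single Hist4 gene, Hist4h4, was called with roxadustat at 0.57 ± 0.14 (adjusted p = 0.0316) and had a value of 0.48 ± 0.14 with DMOG (adjusted p = 0.106). Its call was lost with no filter and without PBS replicate 1, 2 or 3 or roxadustat replicate 1, 2 or 5.

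**Figure D2:**
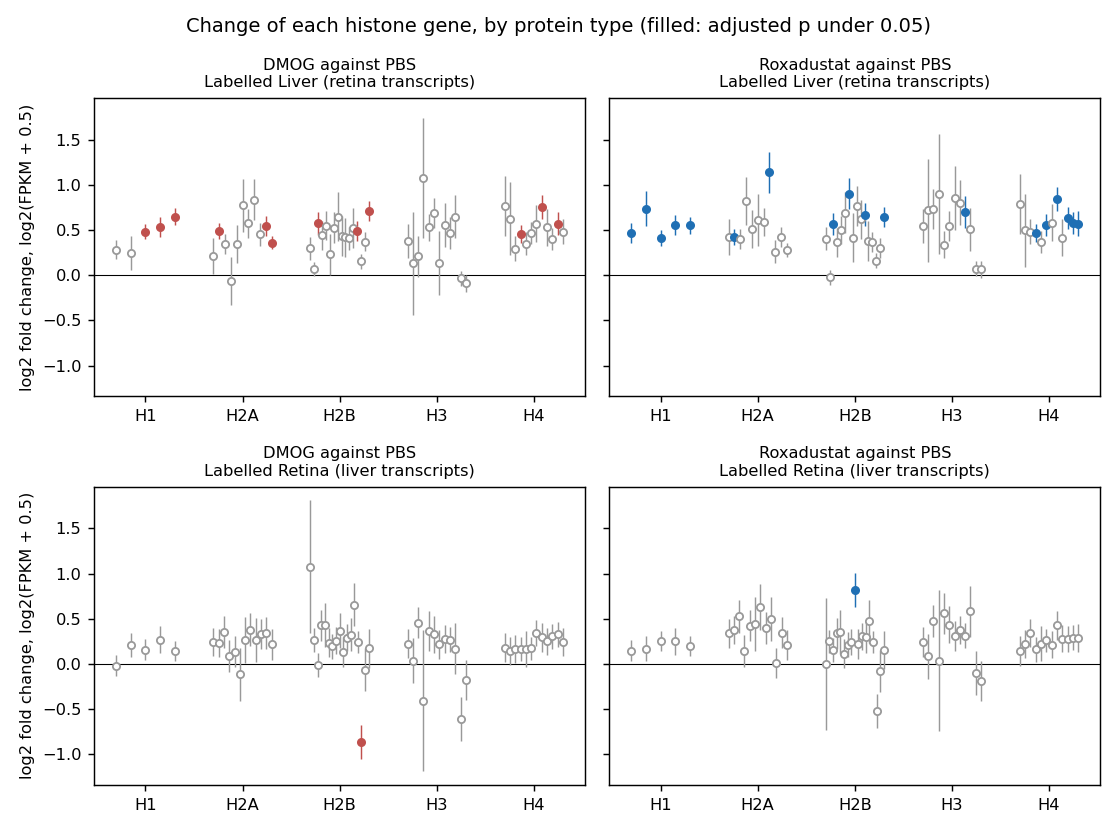
Log2 fold change against PBS (vertical axis, on the scale of log2(FPKM + 0.5)) of each histone gene tested, grouped by the protein it encodes. Points are genes with 1 SE, filled where the adjusted p is under 0.05. In the upper row (labelled Liver, retina transcripts) 12 genes are filled with DMOG and 18 with roxadustat, all above 0, and in the lower row (labelled Retina, liver transcripts) 1 gene is filled in each panel, below 0 with DMOG and above 0 with roxadustat.

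By cluster, 7 of 44 Hist1, 3 of 8 Hist2, 2 of 3 Hist3 and 0 of 1 Hist4 genes were called with DMOG in retina RNA (labelled Liver), and 15, 1, 1 and 1 with roxadustat. The median log2 fold changes of the 44 Hist1 genes were 0.47 and 0.55 and those of the 8 Hist2 genes 0.47 and 0.32. Split by transcript model, 9 of the 20 members whose model runs on past the hairpin were called with each drug, against 1 and 3 of the 16 whose model ends near it. Of the 19 with no hairpin in the model, 2 and 6 were called. The medians in that order were 0.51, 0.41 and 0.47 with DMOG and 0.52, 0.51 and 0.64 with roxadustat. The 34 members with less than 50% of their sequence shared had medians of 0.47 and 0.52. The median was 0.00 with DMOG and 0.05 with roxadustat over 176 other coding genes with transcripts of at most 700 bases, and -0.04 and -0.18 over 35 snoRNA and scaRNA genes.

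Several measures of the libraries differed between the treatment groups of retina RNA (labelled Liver), as the histone level did. The estimated relative depth was 0.820 to 0.899 in the PBS libraries, 0.927 to 1.27 in the DMOG libraries and 1.06 to 1.21 in the roxadustat libraries other than replicate 6, which had 0.790. The 2 treated libraries with the lowest depth, DMOG replicate 1 and roxadustat replicate 6, also had the lowest histone sums of their groups, 6072 and 5629 FPKM. Depth and histone sum did not go together throughout. PBS replicate 4 had the lowest PBS depth, 0.820, and the highest PBS sum, 5726 FPKM. In liver RNA (labelled Retina) roxadustat replicate 6 had the lowest depth, 0.733, and the highest sum of its group, 10761 FPKM. The summed level of Rpph1 and Rmrp, short non-coding RNAs without poly(A) tails, was 68467 to 104121 FPKM with PBS, 89841 to 136433 with DMOG and 78714 to 129474 with roxadustat. The sum of 11 genes that mark lens tissue was 3164 to 33926 FPKM with PBS, 47.0 to 1490 with DMOG and 339 to 17379 with roxadustat, and 11 of 11 lens genes were called lower with DMOG and 4 with roxadustat. The lens sum did not track the histone level in every library. Roxadustat replicate 1 had the highest lens sum of its group, 17379 FPKM, with a histone sum of 7136 FPKM. Roxadustat replicate 6 had a lens sum of 694 FPKM and a histone sum of 5629 FPKM.

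With the relative depth added to the fit as a term, 0 members were called with either drug, and the medians fell to 0.21 and 0.31. With the Rpph1 and Rmrp level as a term the calls were 0 and 1 (medians 0.20 and 0.26), and with the lens level they were 0 and 3 (medians 0.42 and 0.48). Without the 4 libraries with over 10000 FPKM of lens transcripts the calls were 1 and 4, with medians of 0.41 and 0.43. These terms were added after the data had been seen, and each measure differs between the treatments, so for these genes a drug response and a difference between libraries cannot be told apart. Single libraries also mattered. Of the 12 calls with DMOG, 5 held in every alternative other than these added ones (Hist1h1e, Hist1h1c, Hist1h2ac, Hist1h4j and Hist3h2bb-ps), and of the 18 with roxadustat 14 did. Leaving out DMOG replicate 1 gave 25 members called higher with DMOG, and leaving out PBS replicate 2 or 3 or DMOG replicate 4, 5 or 6 gave 5. Leaving out PBS replicate 1 or DMOG replicate 2 gave 6, and leaving out roxadustat replicate 6 gave 31 called with roxadustat.

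**Figure D3:**
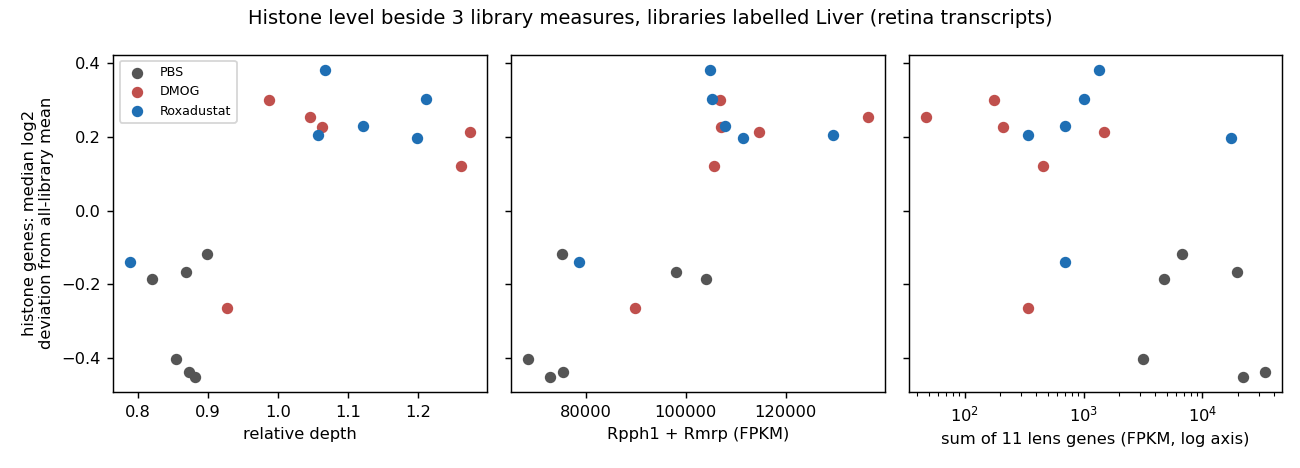
Median log2 deviation of the histone genes from their mean over all libraries (vertical axis) against the relative depth, the summed Rpph1 and Rmrp level (FPKM) and the summed level of 11 lens genes (FPKM, log axis) in the 18 libraries labelled Liver (retina transcripts). Points are libraries, coloured by treatment. The PBS libraries sit between -0.45 and -0.12, and DMOG replicate 1 at -0.27 and roxadustat replicate 6 at -0.14 lie among them.

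No member was called between roxadustat and DMOG in retina RNA (labelled Liver). Of 56 members, 0 were called in either direction between the drugs (limma), 4 were higher with roxadustat at an unadjusted p under 0.05 and 0 lower, and 1.31% of all genes were called. The median log2 difference was 0.02, and single members ranged from -0.23 to 0.88. Hist1h2af, an H2A gene at 1.23 to 5.39 FPKM with DMOG and 3.77 to 7.22 FPKM with roxadustat, had the smallest p, with a difference of 0.88 ± 0.27 (adjusted p = 0.147). Hist1h1b had a difference of 0.49 ± 0.19 (adjusted p = 0.315) and Hist1h1e one of -0.10 ± 0.093. Without DMOG replicate 3, or with the depth term, 1 member was called higher with roxadustat.

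In liver RNA (labelled Retina) the histone sums were shifted less and overlapped. The sum was 5242, 7247 and 7714 FPKM (lowest, median and highest) with PBS, 6671, 7893 and 11102 FPKM with DMOG and 6456, 8512 and 10761 FPKM with roxadustat. The ratios of means were 1.18 and 1.22. Replicate 6 of PBS was the lowest and replicate 3 of DMOG the highest of all 18 libraries. With DMOG, 0 of 58 members were called higher and 1 lower, while 8.26% of all 12657 genes were called higher and 11.7% lower. The members' median log2 fold change was 0.24 beside 0.01 for all genes, and 7 were higher and 2 lower at an unadjusted p under 0.05. With roxadustat 1 member was called higher and 0 lower, beside 2.16% and 2.02% of all genes, with a median of 0.26, and 16 higher and 1 lower at an unadjusted p under 0.05. The members' groups failed to overlap for 0 genes with DMOG, beside 1.33% of all genes, and for 1 with roxadustat, beside 2.76%.

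The member that fell with DMOG in liver RNA (labelled Retina) was Hist2h2be, an H2B gene of the Hist2 cluster whose long transcript model held no hairpin. It lay at 2.51, 3.30 and 3.99 FPKM with PBS and at 1.01, 1.52 and 3.44 FPKM with DMOG. DMOG replicate 5, at 3.44 FPKM, lay within the PBS range and the other 5 lay below it. The log2 fold change was -0.86 ± 0.19 (limma, adjusted p = 0.00463). With roxadustat it lay at 1.51 to 2.89 FPKM, with a value of -0.52 ± 0.19 that did not pass (adjusted p = 0.130). The H3 gene Hist2h3c1 lay at 0.812 to 2.33 FPKM with PBS and at 0.420 to 2.09 FPKM with DMOG, and its value of -0.61 ± 0.24 did not pass (adjusted p = 0.0879). DMOG replicate 5 was its highest DMOG library as well.

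The member that rose with roxadustat in liver RNA (labelled Retina) was Hist1h2bk. Its promoter holds the octamer shown above, which was found in 7 of 14 H2B promoters. Among those was that of Hist2h2bb, which was not called in liver RNA. Hist1h2bk lay at 17.6, 22.0 and 25.5 FPKM with PBS and at 27.99, 35.6 and 63.7 FPKM with roxadustat, with no overlap. The log2 fold change was 0.82 ± 0.19 (limma, adjusted p = 0.0191), and with DMOG it was 0.37 ± 0.19 (adjusted p = 0.179). The roxadustat call was lost without PBS replicate 6 or without roxadustat replicate 3, where the adjusted p rose to at most 0.0519. The abundant members did not pass: Hist2h2bb, at 338 to 460 FPKM with PBS, had values of 0.24 ± 0.12 and 0.25 ± 0.12, Hist1h4d of 0.17 ± 0.14 and 0.16 ± 0.14, and Hist1h4c of 0.17 ± 0.16 and 0.34 ± 0.16. Hist1h2ba, the testis-type H2B gene, stood at 31.9 FPKM in DMOG replicate 4, at 0.178 FPKM in DMOG replicate 6 and at 0 in the other 34 libraries of the series.

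DMOG replicate 5 of the liver RNA changed several counts. Without it 4 members were called higher and 2 lower with DMOG, and 17.3% of all genes were called higher. Between the drugs in liver RNA, 0 of 58 members were called in either direction, beside 2.99% of all genes, and 1 was higher with roxadustat at an unadjusted p under 0.05 (Hist1h2bk, a difference of 0.45 ± 0.19, adjusted p = 0.217). Without DMOG replicate 5 that count was 2.

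**Figure D4:**
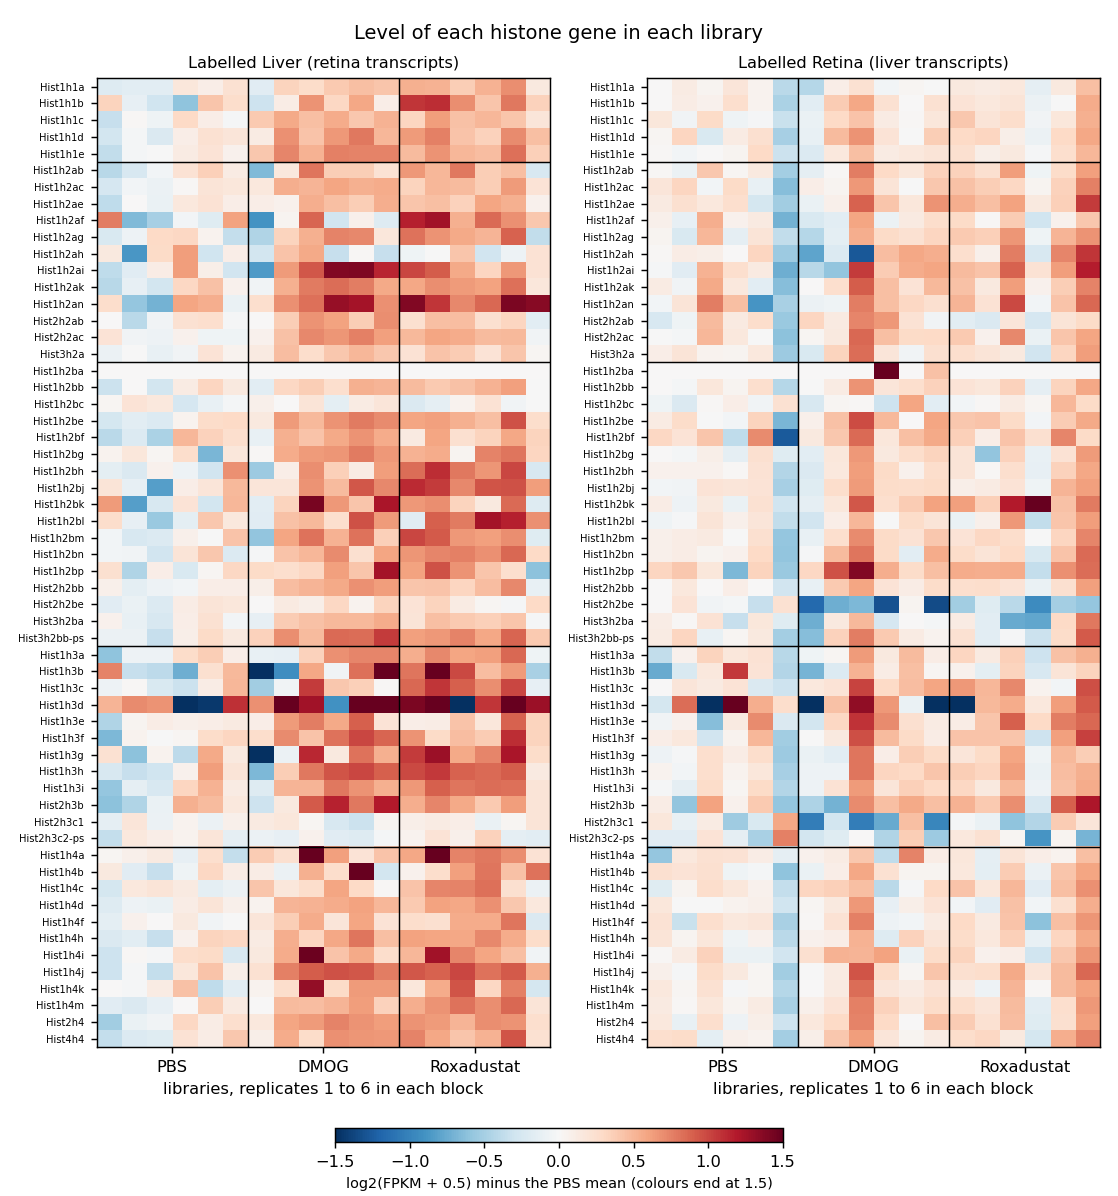
Level of each of the 58 histone genes in each library, as log2(FPKM + 0.5) minus the mean of the 6 PBS libraries of the same label (colour, red higher and blue lower). Rows are genes ordered by protein type, columns are libraries in blocks by treatment, with replicates 1 to 6 from left to right. On the left (labelled Liver) most rows are red in the drug libraries except DMOG replicate 1 and roxadustat replicate 6, and on the right (labelled Retina) PBS replicate 6 is low and DMOG replicate 3 high across most rows.

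The response itself was compared between the labels in a fit over all 36 libraries. For DMOG 2 of 56 members were called, while 15.9% of 11101 genes were. Hist2h2be had a response 1.02 ± 0.21 higher in retina RNA (labelled Liver; limma, adjusted p = 0.00165), from values of 0.16 and -0.86. Hist1h1e had one 0.50 ± 0.15 higher (adjusted p = 0.0178), from 0.65 and 0.15. The median difference over the members was 0.23, and 6 had an unadjusted p under 0.05. For roxadustat 0 of 56 were called, beside 2.24% of all genes, 5 had an unadjusted p under 0.05, and the median difference was 0.28. A difference between the labels was thus called for 2 members with DMOG and for none with roxadustat.

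The genes that act with these histones were read in the same fits, where in retina RNA (labelled Liver) 0.37% of all genes were called higher with DMOG and 1.69% with roxadustat. Of 36 tested genes of DNA replication, 0 were called with either drug, with median log2 fold changes of 0.06 and 0.10, and of 21 genes of mitosis 0 were called, with medians of -0.17 and 0.10. Of 16 genes of histone mRNA transcription and processing, such as Slbp and Npat, 0 were called, with medians of 0.04 and 0.01. Of 22 histone chaperones, which hand histones to DNA, 0 were called with DMOG and 2 higher with roxadustat, Hjurp (0.31 ± 0.057, adjusted p = 0.00417), which loads the centromeric H3 variant, and Asf1b (0.32 ± 0.076, adjusted p = 0.0303). Of 11 histone variant genes outside the clusters, 0 were called with DMOG and 2 with roxadustat, H2afy for macroH2A (0.27 ± 0.042, adjusted p = 0.000670) and H1f0 for the replacement linker histone (0.21 ± 0.052, adjusted p = 0.0325). The medians of the 11 variant genes were 0.13 and 0.15. The 12 listed variants summed to 2443 to 3045 FPKM with PBS, 3047 to 3431 with DMOG and 3013 to 3567 with roxadustat. The DMOG and PBS sums thus did not overlap, though by a narrow margin.

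In liver RNA (labelled Retina), where 11.7% of all genes were called lower with DMOG and 2.02% with roxadustat, 1 of 40 DNA replication genes was called lower with each drug, Tk1 with DMOG (-0.45 ± 0.10, adjusted p = 0.00461) and Cdt1 with roxadustat (-0.43 ± 0.12, adjusted p = 0.0403). Of 26 mitosis genes 0 were called with either drug, with medians of 0.16 and 0.17. Of 16 histone mRNA processing genes, 2 were lower with DMOG, Upf1 (-0.28 ± 0.076, adjusted p = 0.0163) and Ncbp2 (-0.34 ± 0.11, adjusted p = 0.0326), and 0 with roxadustat. Among 22 chaperones, Hjurp (-0.46 ± 0.11) and Tonsl (-0.31 ± 0.084) were lower with DMOG and Tonsl (-0.31 ± 0.084) with roxadustat. Of 11 tested histone variants 0 were called with either drug.

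Markers of other cells that could bring histone transcripts were read beside these results. In retina RNA (labelled Liver) 3 of 12 erythroid markers in the table passed the filter. Their list summed to 11.6 to 19.8 FPKM with PBS, 24.4 to 48.0 with DMOG and 13.6 to 57.8 with roxadustat, and Hbb-b1 was called higher with roxadustat (0.89 ± 0.22, adjusted p = 0.0361). The 10 retinal progenitor markers summed to 250 to 321 FPKM with PBS, 265 to 371 with DMOG and 312 to 390 with roxadustat, and 0 of 10 were called with either drug. Of the myeloid precursor markers 3 of 10 passed the filter, Elane was listed at 0 throughout, and S100a8 was called higher with roxadustat (1.25 ± 0.28). In liver RNA (labelled Retina) the 12 erythroid markers summed to 871 to 1888 FPKM with PBS, 1201 to 3257 with DMOG and 1018 to 2384 with roxadustat, with 0 called with either drug, and 0 of 10 myeloid and 0 of 10 B cell precursor markers were called. In retina RNA 0 of 8 rod, 0 of 8 Mueller glia, 0 of 8 endothelial, 0 of 7 macrophage and 0 of 2 B cell precursor markers were called with either drug, nor was the 1 hepatocyte marker that passed the filter. In liver RNA with DMOG 2 of 8 endothelial and 2 of 8 hepatocyte markers were called higher, beside 8.26% of all genes. Called lower were 2 of 4 progenitor, 1 of 7 Mueller glia and 1 of 3 lens markers, beside 11.7% of all genes. Of 9 macrophage markers and 1 rod marker 0 were called. With roxadustat 0 markers of these lists were called. The part of these cells in the histone values was not tested, and in bulk RNA a larger number of dividing cells and more histone RNA per cell cannot be told apart.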

How the data were processed

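Total RNA was sequenced from 36 libraries after depletion of ribosomal RNA with a strand-specific kit, per the labels' protocols. The submitters' processing notes name bcl2fastq 1.8.3, TopHat2, Cuffdiff 2.2.1 and the mouse build mm9; the annotation, scaling and strand setting are not given in the sources used here. The authors deposited 1 table of FPKM per tissue label, with 22558 genes, and 1 row of totals was left out. FPKM holds no read counts, so absolute depth is unknown and no counting interval is given.

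Levels were analysed as log2(FPKM + 0.5) with limma 3.58.1 in R 4.3.3 (3 group means over the 18 libraries of a label, empirical Bayes with a mean trend, two-sided). Genes that averaged 0.5 FPKM or more entered, and p-values were Benjamini-Hochberg adjusted over all of them, with calls at an adjusted p under 0.05. Responses were compared between labels in 1 fit of all 36 libraries. Sums and shares are descriptions with no test. Figures were drawn with matplotlib 3.10.9.

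The members, gene lists and tests were chosen with earlier results of these data known. Members named were, per table, the 8 highest by mean, up to 6 called members per drug and direction with the smallest adjusted p (4 between the drugs, or the 2 smallest where none was called), and the highest of each cluster and type. Other members named to complete a type were chosen after their values were seen. Promoters came from RefSeq (GRCm38.p6) and transcripts from GENCODE M21 by symbol, since the reference is not the build of the files, and no coordinates were transferred.

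On simulated data for DMOG against PBS, 91 of 100 genes changed 1.5-fold were called in the libraries labelled Liver over 13779 genes, and 83 of 100 in those labelled Retina over 12657 genes. For 2-fold changes 97 and 94 of 100 were called. Genes left unchanged gave 6 and 9 false calls. The simulated noise was drawn separately for each gene and library, with no shift shared by a whole library. These rates therefore do not cover shared shifts such as those described above for retina RNA (labelled Liver). Alternatives were the pseudocount, the filter, the scaling, the variance model, a replicate block, a sex term and each library left out. Terms for depth, lens and short RNA were added after the data had been seen.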

Additional observations from a re-analysis of the deposited data

Results flagged for a closer look

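A sample was singled out where it lay far from the other 5 of its group, which chance gives in about 1 of 20 groups. Of 111 groups of values examined, 13 (11.7%) held such a library. In retina RNA (labelled Liver) DMOG replicate 1 lay below the other DMOG libraries for Hist1h4j at 37.7 FPKM, for Hist1h2ac at 4.79 FPKM, for Hist1h4d at 575.8 FPKM and for Hist3h2ba at 161 FPKM. For the H3 gene Hist1h3e, PBS replicate 1 was low at 207.7 FPKM and roxadustat replicate 5 high at 526.3 FPKM.

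In liver RNA (labelled Retina) DMOG replicate 3 was high for Hist1h4d at 666 FPKM, for Hist1h4f at 680.7 FPKM, for Hist1h4m at 493.6 FPKM and for the sum of the histone genes at 11100 FPKM (rounded). PBS replicate 6 was low for Hist1h4m at 208.6 FPKM and for the sum at 5242 FPKM. DMOG replicate 5 was high for Hist2h2be at 3.44 FPKM.

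The response to DMOG was higher in retina RNA (labelled Liver) than in liver RNA (labelled Retina) for Hist1h1e, by 0.50 on the log2 scale, and for Hist2h2be, by 1.02, in the fit of all 36 libraries.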

How the results depend on the processing

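Of the counts of members under all alternatives, 429 stayed within 1.5 times the value reported and 35 did not. For named or called members 2120 values kept their direction and side of the threshold, 216 lost the call, 23 gained it and 4 changed sign. In retina RNA (labelled Liver) the members called higher with DMOG and roxadustat, 12 and 18, were 0 and 0 with a depth term, 0 and 1 with an Rpph1 and Rmrp term, 0 and 3 with a lens term and 1 and 4 without the 4 libraries rich in lens transcripts. With the depth term 1 member was higher with roxadustat than with DMOG. Leaving out 1 library gave 5 to 25 calls with DMOG, 14 to 31 with roxadustat and 0 to 1 between the drugs.

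In liver RNA (labelled Retina) 1 member was higher with DMOG with the Rpph1 and Rmrp term. Members lower with DMOG numbered 0 at a mean of at least 5 FPKM (which drops Hist2h2be), 2 at an equal total FPKM per library and 2 with the depth term. The equal total moved the median of all genes to -0.07. With a term for sex, which the labels do not give and which was inferred from transcripts (1 female and 5 male libraries with roxadustat against 3 and 3 with PBS), 2 members were higher with roxadustat. Leaving out 1 library gave 0 to 4 higher and 1 to 2 lower with DMOG, 0 to 1 higher and 0 to 1 lower with roxadustat, and 0 to 2 higher with roxadustat than with DMOG. The DMOG response differed between labels for 1 member at a mean of at least 5 FPKM and for 2 to 3 with 1 library left out, and the roxadustat response for 0 to 1. Hist3h2ba in liver RNA changed sign, to 0.0734 with DMOG without DMOG replicate 1, and with roxadustat to 0.0267 with the sex term, 0.0563 without roxadustat replicate 3 and 0.0621 without replicate 4. With 1 library left out its values ran from -0.171 to 0.0734 with DMOG and from -0.254 to 0.0621 with roxadustat. Apart from the filter, the cause was not tested.

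Libraries with the same replicate number in 2 groups had deviations that correlated at r from -0.333 to 0.546, not above 0.1 in every pair, so they were not treated as paired. Between DMOG and roxadustat 3 of 6 libraries correlated best with their own number in each label, and 1 of 6 in the comparisons with PBS. With the replicate block 13 and 21 members were called in retina RNA and 1 was called higher with DMOG in liver RNA. Low members are limited by a depth that the tables do not give.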
